A study of Mus musculus with 8 samples.

Results

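The 10 genes described here encode the main α-tubulins (Tuba1a, Tuba1b, Tuba1c and Tuba4a) and β-tubulins (Tubb2a, Tubb2b, Tubb3, Tubb4a, Tubb4b and Tubb5) of mouse brain cells. They were taken by name, 10 of the 31053 genes in the count tables, and all 10 were detected in both libraries. Their RNA was followed in single cells from the dentate gyrus (DG), from dividing progenitors through neuroblasts to immature granule neurons, and in the glial and vascular cells sorted with them. Control mice had a sham craniotomy and TBI mice a unilateral controlled cortical impact, and cells were collected on day 15 after surgery. All animals were male Nestin-GFP mice aged 8 weeks, in which the nestin promoter drives GFP, and only GFP-positive cells of the DG on the operated side were sorted. The promoter thus decided which cell types could be measured. The animals of a condition were pooled, so each condition is 1 library and no cell can be assigned to an animal. The labels list 4 Control and 4 TBI animals, but the study's methods give other numbers, so how many were pooled is uncertain. No test between conditions was made, and all intervals are 95% intervals of counting error only.

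Microtubules are hollow polymers of α- and β-tubulin heterodimers, and they form the mitotic spindle in dividing cells and the tracks and supports of growing axons and dendrites in neurons. Mammals encode each partner in several genes, the isotypes, which are most alike in the body of the protein and differ most in the acidic tail at its C-terminal end, where motors and microtubule-associated proteins bind and where enzymes add and remove amino acids. Tuba1a and Tubb2b are the abundant isotypes of migrating and differentiating neurons, Tubb3 is the isotype used as a label of young neurons, Tubb5 is common in progenitors, and Tubb4a is known from myelinating oligodendrocytes. Variants of several of these genes cause cortical malformations in humans.

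The genes lie on 6 chromosomes of GRCm38, and each has 4 exons in the transcript used. Tuba1a (15:98949837-98953703, minus strand), Tuba1b (15:98931425-98934565, minus strand) and Tuba1c (15:99029891-99038110, plus strand) are neighbours on chromosome 15, and Tuba4a is at 1:75214228-75219865 (minus strand). Tubb2a (13:34074274-34078007) and Tubb2b (13:34126748-34130466) are neighbours on the minus strand of chromosome 13. Tubb3 is at 8:123411424-123422015 (plus strand), Tubb4b at 2:25222160-25224702 (minus strand), and Tubb4a (17:57080066-57087782) and Tubb5 (17:35833921-35838306) are on the minus strand of chromosome 17. The ends of the coding sequences show where the isotypes differ. They are given for Tuba4a, which had its highest level in astrocytes, and for Tubb3, the neuronal label. Tubb5, Tubb2b and Tubb4a are added because they led the β pools of progenitors, neuroblasts and oligodendrocytes. Shown are the last 60 coding bases of the GENCODE vM21 transcripts, with the last sense codon and the stop codon in capitals:
Tuba4a: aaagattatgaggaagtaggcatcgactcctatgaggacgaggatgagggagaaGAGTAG
Tubb2b: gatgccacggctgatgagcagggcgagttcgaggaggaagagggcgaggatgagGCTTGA
Tubb3: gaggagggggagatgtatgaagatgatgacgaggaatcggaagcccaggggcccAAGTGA
Tubb4a: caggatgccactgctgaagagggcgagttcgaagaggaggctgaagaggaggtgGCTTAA
Tubb5: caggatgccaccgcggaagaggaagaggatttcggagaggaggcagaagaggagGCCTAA

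Over the whole coding sequence the 4 α genes were 84.7% to 98.3% identical and the 6 β genes 81.2% to 96.5%. Over the last 60 coding bases the range of the β genes widened to 42.7% to 95%. Tuba1a and Tuba1b were the closest α pair, 98.3% identical over the coding sequence. The library chemistry reads the 3′ end of RNA. In the last 300 transcript bases, 27.0% of the 31-base words of Tuba1a, 40.4% of those of Tuba1b, 51.1% of those of Tuba1c, 22.2% of those of Tubb2a and 35.9% of those of Tubb4b also occur in other genes or pseudogenes, against 0% for the other 5 members. Levels of those 5 genes with shared words are therefore less certain.

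After the filter on RNA content, 3049 of 3086 Control barcodes with 24629521 UMIs and 5036 of 5081 TBI barcodes with 31503415 UMIs were kept. A UMI is a random tag that marks a captured RNA molecule, so a long transcript counts no more than a short one. The TBI library was shallower per cell, with a median of 5663 UMIs against 6928, and 3 barcodes occurred in both tables. Cells were clustered without the tubulin genes, and 16 classes were named from marker genes, each name standing for cells like that type. The limits on markers and RNA content used in naming were set after the clusters had been seen. All fixed markers reached their highest level among the 16 classes in the class they name for S-phase and mitotic progenitors, Reln neurons, oligodendrocytes, endothelial cells, mural cells and microglia, and for OPC (oligodendrocyte precursor cells) 6 of 7. The other classes were less distinct. The RG-like cluster, against which the neuroblasts are compared, had the highest level of 6 of its 8 markers, but its mean standardized marker level was slightly higher for the S-phase markers (1.51) than for the RG-like ones, and its leading genes included Ung and Mcm3, which act in DNA repair and replication, and the G1 cyclin Ccnd1. Among late neuroblasts, for example, Calb2 and Tgfb2 were only the third highest. A second cluster with late neuroblast markers, in which no marker was highest and the median UMI count was 3441, is kept apart.

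The 10 genes gave 181298 UMIs in Control, 0.781% of the library, and 212898 in TBI, 0.715%. Tuba1a alone gave 74676 and 87784 UMIs, Tubb2b 36715 and 46242, and Tubb5 30972 and 35468. Tuba1c (449 and 304 UMIs) and Tuba4a (387 and 282 UMIs) were the rarest. The 10 other tubulin genes, among them the γ-tubulin Tubg1, together made up 0.707% of all tubulin UMIs.

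Levels are given in CPM, counts per 1000000 UMIs, where Malat1 was left out of the total and the UMIs of a class were added up within each library. The summed level of the family differed between the neuronal stages. It was 1.06% of UMIs in Control and 0.982% in TBI S-phase progenitors, 0.978% and 0.92% in mitotic progenitors, 0.572% and 0.550% in RG-like cells, 1.30% and 1.21% in early neuroblasts, and 2.01% and 1.90% in intermediate neuroblasts. Late neuroblasts held 1.97% and 1.87% and immature granule neurons 1.32% and 1.31%. The second cluster of late neuroblasts was highest, with 2.21% and 2.16%. The classes outside the neuronal lineage were lower, with 0.25% and 0.243% in astrocytes, 0.348% and 0.294% in oligodendrocytes, and 0.131% and 0.147% in microglia, while OPC held 0.836% and 0.834%. Each level is a share of a class's UMIs, so it does not tell how much tubulin RNA a cell holds.

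**Figure D1:**
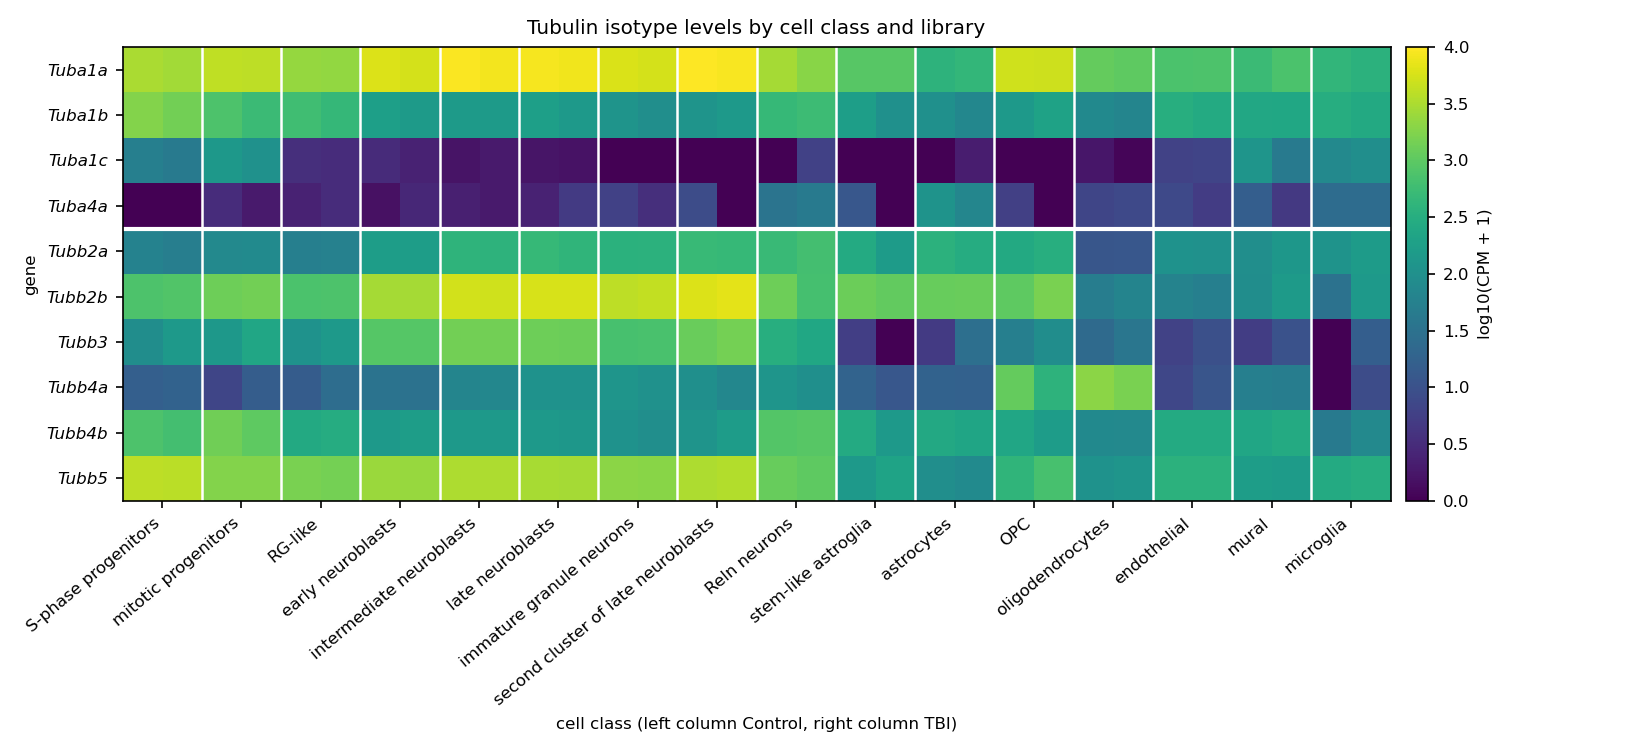
Heatmap of the level of the 10 tubulin genes (rows) in 16 cell classes, Control in the left and TBI in the right column of each class, with colour as log10(CPM + 1). Tuba1a, Tubb2b and Tubb3 were high from early neuroblasts on, Tubb5 in S-phase progenitors and neuroblasts, Tubb4a in oligodendrocytes, Tuba4a in astrocytes and Tuba1c in mitotic progenitors.

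Tuba1a, the main α-tubulin of developing neurons, was the leading α gene in every class. Its level was 2359 CPM in Control and 2258 CPM in TBI RG-like cells, 6169.5 and 5505 in early neuroblasts, and 9319.5 and 8443 in intermediate neuroblasts. It was 8909 and 8093 CPM in late neuroblasts and 5844 and 5508 CPM in immature granule neurons. Of the 7 stages it was highest in intermediate neuroblasts in both libraries, where the interval in Control (9172 to 9468 CPM) lay above that of late neuroblasts (8756 to 9064 CPM). The second cluster of late neuroblasts was higher still, at 10576 and 9029 CPM. Outside the neuronal lineage, OPC stood apart with 5084 and 4935 CPM, but their cells were spread widely. The median OPC cell held 1975 CPM in Control and 1872 CPM in TBI, and the 90th percentiles were 9782 and 12562 CPM. Astrocytes had 382 and 452 CPM and microglia 434 and 371 CPM, and the highest class exceeded the lowest 27.7-fold in Control and 24.3-fold in TBI.

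Tuba1b, an α-tubulin found in most dividing cells, ran the other way. It was highest in S-phase progenitors, at 1829 CPM in Control and 1427 CPM in TBI, and no other class had an overlapping interval. Mitotic progenitors had 773 and 540.2 CPM, RG-like cells 597 and 465 CPM, and early neuroblasts 182 and 152 CPM. From early neuroblasts on its level stayed between 93.3 and 182 CPM in the 4 stages. Endothelial cells, with 324 and 281 CPM, and Reln neurons, with 482 and 557 CPM, held more Tuba1b than any neuroblast stage.

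Tuba1c, a minor α-tubulin, was highest in mitotic progenitors, at 133 CPM in Control (181 UMIs) and 103 CPM in TBI (110 UMIs). S-phase progenitors had 52.9 and 43.8 CPM, and RG-like cells only 5 and 6 UMIs, 2.43 and 2.23 CPM. Mural cells of Control, at 120.3 CPM, and microglia, at 75.5 and 94.0 CPM, had intervals that overlapped those of mitotic progenitors. In immature granule neurons of both libraries no UMI was counted, which allows a level of up to 3.07 CPM in Control and 2.22 CPM in TBI at the upper end of the interval.

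Tuba4a, the α isotype least like the other 3 in coding sequence, had its highest level of the 16 classes in astrocytes. Astrocytes had 112 CPM in Control (146 UMIs) and 68.5 CPM in TBI (62 UMIs). Reln neurons followed with 33.1 and 42.3 CPM, and in TBI their interval overlapped that of astrocytes. None of the 7 neuronal stages reached more than 5.0 CPM, and S-phase progenitors held no UMI. Clusters of astrocytes with low RNA content, which were not among the 16 classes, had 119.9 and 124 CPM.

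Tubb5 was the leading β gene of S-phase progenitors, mitotic progenitors and RG-like cells, but its level was not confined to progenitors. It was highest in S-phase progenitors, at 3974 CPM in Control and 3863 CPM in TBI, lower in mitotic progenitors, at 1833 and 1811 CPM, and lowest of the 7 stages in RG-like cells, at 1592 and 1472 CPM. A second high level was seen in intermediate neuroblasts, at 3253 and 3194 CPM, followed by 2942 and 2879 CPM in late neuroblasts and 1992 and 1963 CPM in immature granule neurons. Astrocytes had 95.3 and 79.6 CPM, so that the highest class exceeded the lowest 41.7-fold and 48.5-fold.

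Tubb4b, a β-tubulin of many cell types including ciliated cells, was highest in mitotic progenitors, at 1370.5 CPM in Control and 1031 CPM in TBI. Reln neurons were next, at 850.2 and 911 CPM, and their interval overlapped that of mitotic progenitors in TBI only. S-phase progenitors had 774 and 637 CPM and RG-like cells 267 and 304 CPM. The 4 later stages lay between 93.3 and 170.3 CPM, below endothelial cells (281 CPM in both libraries), mural cells (233 and 282 CPM) and astrocytes (257 and 220.0 CPM).

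Tubb2b, the β-tubulin with the highest level in neuroblasts, was 725 CPM in Control and 776 CPM in TBI RG-like cells and 2902 and 2860.3 CPM in early neuroblasts. Intermediate neuroblasts had 5315 and 5207 CPM and late neuroblasts 5642 and 5713 CPM. It therefore peaked later than Tuba1a among the 7 stages, before a level of 4009 and 4219 CPM in immature granule neurons. It was also the leading β gene of astroglial cells, with 1159 and 1197 CPM in astrocytes and 1283 and 1096 CPM in stem-like astroglia. Oligodendrocytes had 48.7 and 61.8 CPM and endothelial cells 59.9 and 52.3 CPM, and across all 16 classes the highest level exceeded the lowest 199-fold in Control and 129-fold in TBI.

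Tubb2a, whose coding sequence is 96.5% identical to that of Tubb2b, was rarer in neuroblasts but had a similar course, with 51.4 CPM in Control and 55.3 CPM in TBI RG-like cells and 471 and 410.2 CPM in late neuroblasts. Reln neurons had 505 and 637 CPM, the highest value of the 16 classes, but the interval overlapped that of the second cluster of late neuroblasts (488 and 470 CPM) in both libraries and that of late neuroblasts in Control. Like Tubb2b it was lower in immature granule neurons than in late neuroblasts, by log2 values of −0.40 (−0.58 to −0.23) and −0.16 (−0.32 to −0.01). Unlike Tubb2b it was not lower in immature granule neurons of TBI (366 CPM) than in intermediate neuroblasts (379.7 CPM) beyond the intervals. Astrocytes had 374 and 298 CPM, close to the neuroblast level.

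Tubb3, the class of β-tubulin used as a label of neurons, was 107 CPM in Control (220 UMIs) and 141 CPM in TBI (379 UMIs) in RG-like cells. Early neuroblasts had 876 and 880.1 CPM, intermediate neuroblasts 1424 and 1419 CPM, late neuroblasts 1292 and 1256 CPM, and immature granule neurons 691 and 713 CPM. The libraries overlapped at each of these 4 stages. Dividing progenitors had low but measurable levels, with 89.5 and 137 CPM in S-phase and 137 and 231 CPM in mitotic progenitors. In Reln neurons Tubb3 was 326 and 241 CPM. No UMI was counted in microglia of Control and in stem-like astroglia of TBI, and it was 3.84 and 27.6 CPM in astrocytes.

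Tubb4a, a β-tubulin of myelinating cells and mature neurons, was highest in glia. Oligodendrocytes had 1991 CPM in Control (interval 1954 to 2029 CPM) and 1542 CPM in TBI (1516 to 1569 CPM), and OPC were next with 1152 and 387 CPM. In the neuronal stages its level was much lower, and went from 13.6 and 25.6 CPM in RG-like cells to 109 and 109.5 CPM in late neuroblasts and 119.9 and 104 CPM in immature granule neurons. Late neuroblasts and immature granule neurons did not differ beyond the intervals.

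The change along the lineage was read as the ratio of late neuroblasts to RG-like cells in each library. A gene was called when it was at least 2-fold higher or lower in both, among genes with at least 100 UMIs over both classes and libraries. Of the 10 members 8 passed that filter, and 5 were called higher and 1 lower, against 8.44% of 8654 genes called higher and 10.9% called lower. Tuba1c (13 UMIs) and Tuba4a (18 UMIs) had too few UMIs to be compared. No replicate stands behind these calls, and the 2 libraries are the only repeat of the comparison.

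Tubb3 had the largest ratio, with a log2 value of 3.60 (interval 3.40 to 3.81) in Control and 3.16 (3.00 to 3.32) in TBI, or 12.1-fold and 8.93-fold. Tubb2a had values of 3.20 (2.90 to 3.5) and 2.89 (2.64 to 3.15), Tubb2b with 2.96 (2.88 to 3.04) and 2.88 (2.81 to 2.95), and Tuba1a with 1.92 (1.87 to 1.96) and 1.84 (1.80 to 1.89). For Tubb4a the libraries differed most, with 3.01 (2.42 to 3.64) in Control and 2.10 (1.69 to 2.51) in TBI, and the TBI value was 2.69 when cells called doublets were removed. Tuba1b was the gene called lower, with −1.73 (−1.93 to −1.54) and −1.70 (−1.89 to −1.50). Tubb4b was also lower, at −0.93 in Control and −1.20 in TBI, but was not past 2-fold in Control. Tubb5 was higher by 0.89 and 0.97, short of 2-fold in both.

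**Figure D2:**
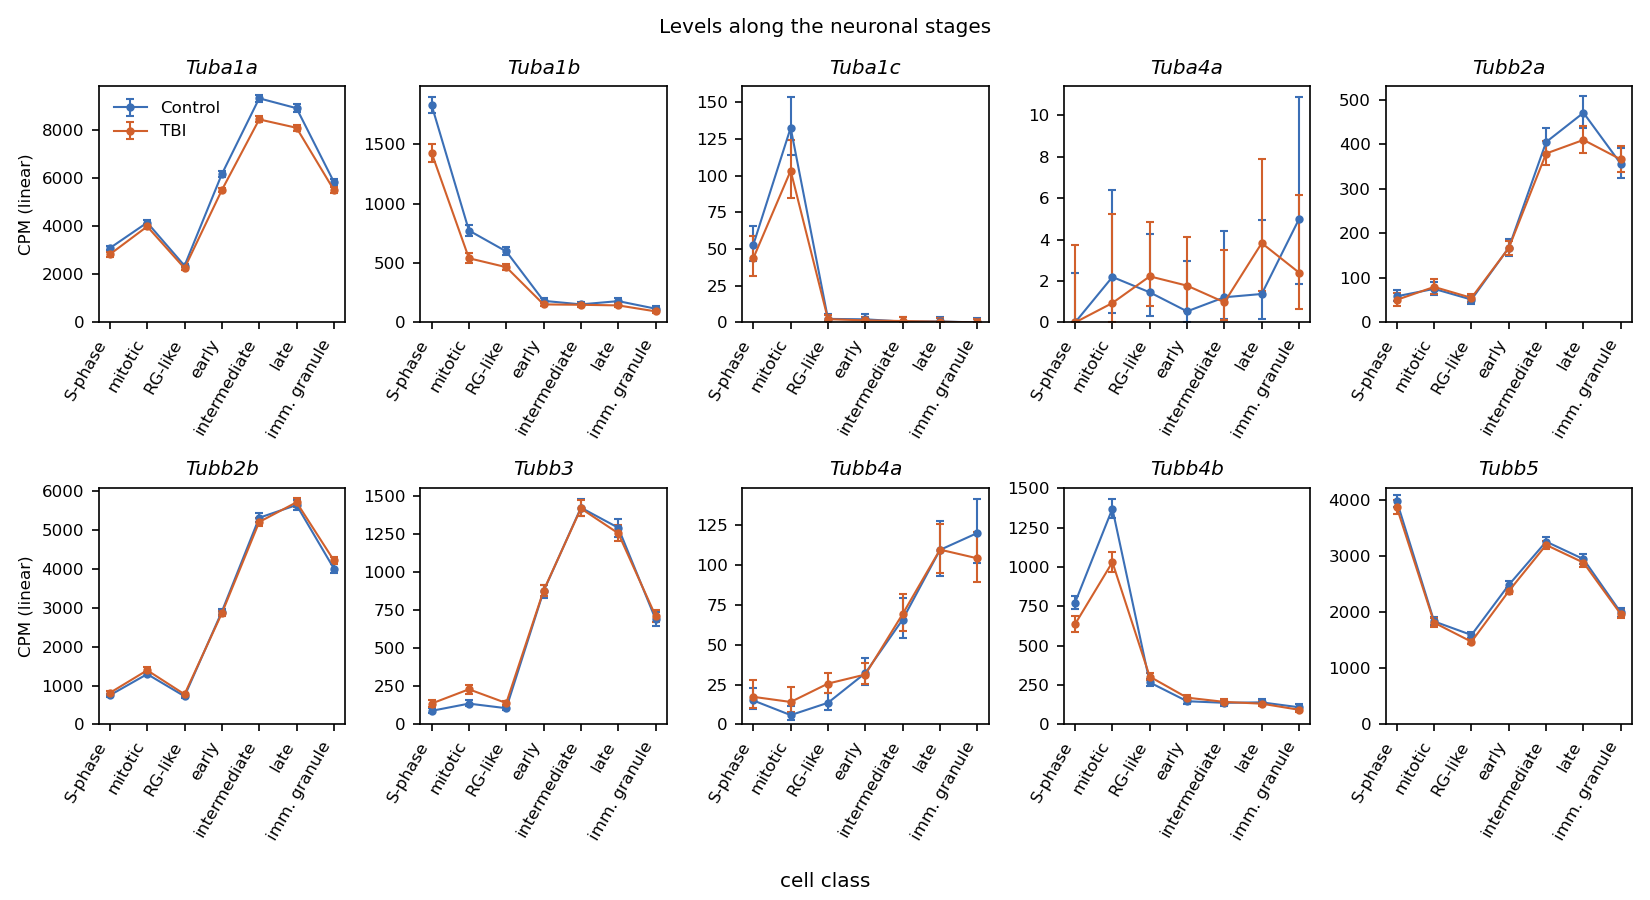
Level in CPM (linear axis, a scale per gene) of each tubulin gene over 7 classes from S-phase progenitors to immature granule neurons, Control in blue and TBI in orange, with bars for the 95% Poisson interval of the summed UMIs. Tuba1a, Tubb2a, Tubb2b and Tubb3 were low in RG-like cells and high in intermediate and late neuroblasts, and Tuba1b, Tuba1c and Tubb4b were highest in dividing progenitors.

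The steps between neighbouring stages placed most of this change early. From RG-like cells to early neuroblasts, 4 of 8 members with enough UMIs (Tuba1a, Tubb2a, Tubb2b and Tubb3) were at least 2-fold higher in both libraries and 1 (Tuba1b) was lower, against 3.17% and 6.37% of all genes. The log2 ratio of that step was 3.04 in Control and 2.65 in TBI for Tubb3, 2.00 and 1.88 for Tubb2b, and −1.72 and −1.62 for Tuba1b. From early to intermediate neuroblasts only Tubb2a (1.27 and 1.18) and Tubb4a (1.03 and 1.15) were past 2-fold, against 1.51% of genes higher and 0.773% lower, and Tubb3 was higher by 0.70 and 0.69. From intermediate to late neuroblasts, and from late neuroblasts to immature granule neurons, no member was past 2-fold in either direction. At these steps 0.539% and 0.626% of genes were past it upwards and 0.475% and 0.346% downwards. In the last step Tubb3 was lower by log2 values of −0.90 and −0.82, Tuba1a by −0.61 and −0.56, Tubb5 by −0.56 and −0.55 and Tubb2b by −0.49 and −0.44, whereas Tubb4a was near level at 0.13 (−0.20 to 0.47) and −0.07 (−0.38 to 0.23).

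The cell cycle classes differed from RG-like cells in another set of members. In S-phase progenitors Tuba1b, Tubb4b and Tubb5 were at least 2-fold above RG-like cells in both libraries and none was below, against 3.99% and 3.96% of genes. The log2 ratios in Control and TBI were 1.61 and 1.62 for Tuba1b, 1.54 and 1.07 for Tubb4b and 1.32 and 1.39 for Tubb5. Tuba1c was higher by 4.45 and 4.30, but it entered that comparison only through its UMIs in dividing cells, so it had to differ. In mitotic progenitors Tubb4b (2.36 and 1.76) was past 2-fold above RG-like cells, against 3.04% of genes, and none was below, against 5.06%. Tuba1c was higher there by 5.77 and 5.54, again a comparison it entered only through dividing cells (181 and 110 UMIs against 5 and 6). Between the dividing classes, Tuba1b (−1.24 and −1.40) and Tubb5 (−1.12 and −1.09) were lower in mitotic than in S-phase progenitors and Tuba1c was higher (1.32 and 1.24), against 4.31% of genes past 2-fold downwards and 1.29% upwards. Tuba1b and Tubb5 were thus highest in cells with S-phase markers and Tuba1c and Tubb4b in cells with markers of mitosis.

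Since α- and β-tubulin assemble as a pair, each gene was also expressed as a share of the α or β UMIs of its class. Tuba1a made up 79.7% of α UMIs in Control and 82.8% in TBI RG-like cells, with nearly all of the rest from Tuba1b (20.2% and 17.1%). From early neuroblasts on Tuba1a made up between 97.1% and 98.8% in both libraries. S-phase progenitors had the most even α pool of the lineage, 62.2% and 65.8% Tuba1a and 36.8% and 33.2% Tuba1b.

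The leading β gene changed between RG-like cells and early neuroblasts. In RG-like cells Tubb5 made up 57.8% of β UMIs in Control and 53.1% in TBI and Tubb2b 26.3% and 28.0%. In early neuroblasts Tubb2b led, with 43.9% and 44.1% against 37.6% and 36.6% for Tubb5. By the stage of immature granule neurons Tubb2b had 55.1% and 56.6% and Tubb5 27.4% and 26.3%. Tubb3 was never the leading gene: its share was 3.87% and 5.07% in RG-like cells, at most 13.4% in Control and 13.6% in TBI neuroblast stages, and 9.50% and 9.56% in immature granule neurons. In mitotic progenitors the pool was spread over Tubb5 (38.9% and 39.7%), Tubb2b (27.5% and 30.6%) and Tubb4b (29.1% and 22.6%), while in S-phase progenitors Tubb5 held 70.2% and 70.0%.

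**Figure D3:**
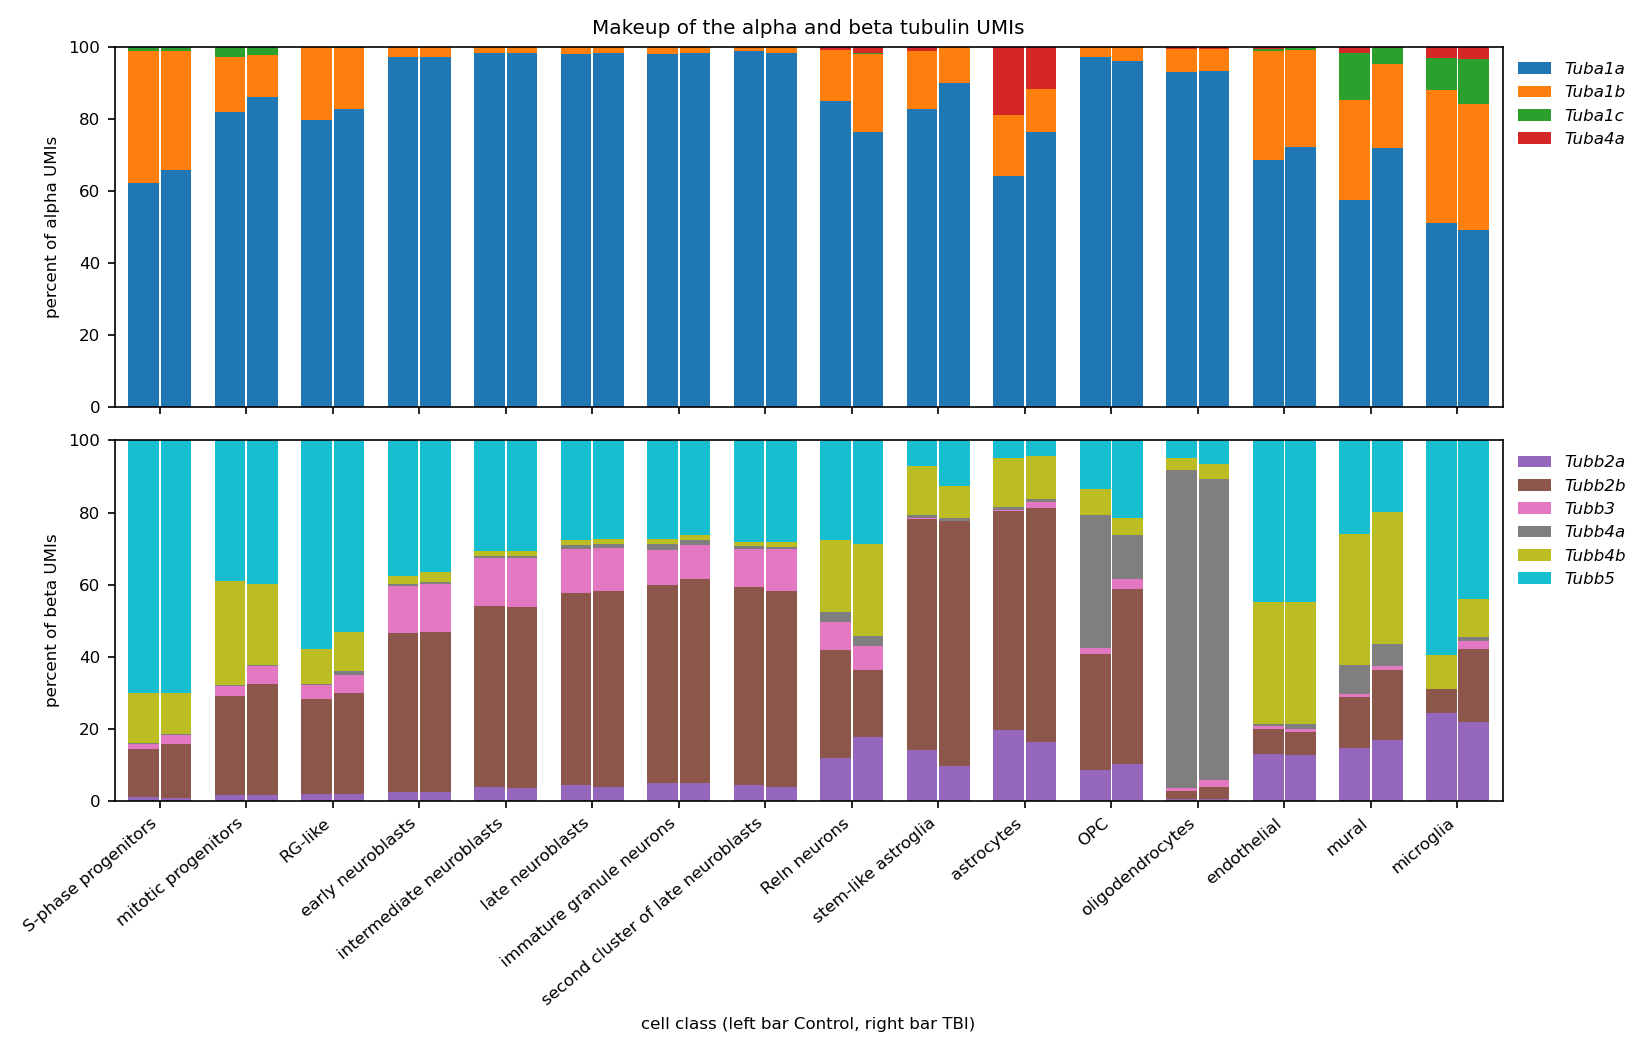
Stacked bars of the percentage of α-tubulin UMIs (top) and of β-tubulin UMIs (bottom) from each gene, for 16 cell classes in Control and TBI. Tuba1a filled nearly the whole α pool from early neuroblasts on, and the leading β gene was Tubb5 in progenitors, Tubb2b in neuroblasts and astrocytes and Tubb4a in oligodendrocytes.

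The same change was seen within single cells, thinned to 2000 UMIs each so that depth was equal. Among cells with at least 5 β UMIs after thinning, the median share of Tubb2b in a cell was 24.3% in Control and 28.6% in TBI RG-like cells (78 of 148 and 123 of 238 cells). It was 43.2% and 42.9% in early, 50.0% in both libraries in intermediate and 54.2% and 54.4% in late neuroblasts. The median share of Tubb5 was 61.0% and 55.6% in RG-like cells. In mitotic progenitors, where Tubb5 led the summed UMIs, the median shares in a cell were close, at 32.1% and 33.3% for Tubb5 and 32.6% and 33.3% for Tubb2b.

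Detection of Tubb3 followed its level. After thinning, a Tubb3 UMI was found in 16.9% of RG-like cells in Control (interval 11.2 to 23.9%) and 15.5% in TBI (11.2 to 20.8%). The share was 74.2% and 75.3% in early neuroblasts, 89.9% and 90.2% in intermediate neuroblasts and 69.1% and 68.1% in immature granule neurons. Endothelial cells, which should lack the gene, had 0.398% and 0.551%, from median depths of 4891 and 3749 UMIs before thinning against 14310 and 11241 in RG-like cells. The RG-like class held 17 cells called doublets, and the part of free RNA and of doublets in its share was not tested. Without thinning, a UMI was found in 44.6% and 42.4% of RG-like cells and in 100% of late neuroblasts of both libraries.

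Cells of a class were spread widely around these levels. In RG-like cells the median cell held 2072 CPM of Tuba1a in Control and 1927 CPM in TBI, from 577 to 4198 CPM between the 10th and 90th percentiles in Control. For Tubb3 the median RG-like cell had 0 CPM in both libraries and the 75th percentile was 144 and 178 CPM. In intermediate neuroblasts the median was 1325 and 1334 CPM, with 10th percentiles of 715 and 690.1 CPM, so nearly all of these cells exceeded most RG-like cells in Tubb3.

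The second cluster of late neuroblasts held 35 Control and 45 TBI cells with a low RNA content. Against late neuroblasts no member was past 2-fold in either direction, where 0.263% of genes were higher and 19.1% lower. Tuba1a was higher by 0.25 and 0.16 and Tubb2b by 0.15 and 0.24. Its β pool was made up much as that of late neuroblasts, with 55.0% and 54.4% Tubb2b and 10.5% and 11.8% Tubb3.

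Reln neurons, cells with markers of Cajal-Retzius cells, had the most even pools among neurons. Tuba1a made up 85.0% of α UMIs in Control and 76.4% in TBI. The β pool held 30.2% and 18.5% Tubb2b, 27.8% and 28.7% Tubb5, 19.8% and 25.5% Tubb4b and 11.8% and 17.9% Tubb2a. The leading β gene of the TBI cells was Tubb5, but it became Tubb4b when doublets were removed or when each cell had equal weight.

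Astroglial cells held Tubb2b as their main β isotype and little Tubb5 or Tubb3. Stem-like astroglia, named by markers shared with neural stem cells, were compared with RG-like cells. Tuba1a (log2 −1.39 in Control and −1.29 in TBI), Tuba1b (−1.77 and −2.19) and Tubb5 (−3.49 and −2.85) were at least 2-fold lower in both libraries, against 13.8% of genes. Tubb3 was called lower too, but it entered that comparison only through RG-like cells, so it had to differ. It had 220 and 379 UMIs there, and its sums of 2 and 0 UMIs in stem-like astroglia were too small for a firm ratio. Tubb2a was past 2-fold higher (2.45 and 1.47), against 9.69% of genes, and Tubb2b was higher by 0.82 and 0.50. Tubb4b was 274 and 142 CPM, against 267 and 304 CPM in RG-like cells. Tubb2b made up 64.1% and 68.2% of β UMIs in stem-like astroglia and 60.8% and 65.1% in astrocytes.

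Astrocytes were the class with the most β UMIs for each α UMI, 3.21 in Control and 3.10 in TBI, against 0.931 and 1.02 in RG-like cells and 1.17 and 1.27 in late neuroblasts. Their α pool held 18.9% and 11.6% Tuba4a, which was under 0.1% of it in each of the 7 neuronal stages. Tubb5, the main β gene of RG-like cells, made up only 5.0% and 4.33% of their β pool. Against late neuroblasts, Tubb5 was lower by log2 values of −4.95 and −5.18 and Tuba1a by −4.54 and −4.16.

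In the oligodendrocyte lineage Tubb4a led the β pool of the mature cells. It made up 36.8% of β UMIs in Control and 12.1% in TBI OPC, and 88.1% and 83.5% in oligodendrocytes. Against OPC, 6 of 8 members with enough UMIs were at least 2-fold lower in oligodendrocytes of both libraries and none was higher, against 15.3% and 6.86% of genes. The largest of these differences were those of Tubb2a (−4.62 and −4.86) and Tubb2b (−4.37 and −4.66), and Tuba1a (−2.16 and −2.28) and Tubb5 (−1.97 and −2.51) were also lower. Tubb4a was higher by 0.79 (0.60 to 0.98) and 1.99 (1.76 to 2.24).

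In vascular cells no isotype dominated the β pool. Endothelial cells had 44.7% and 44.8% Tubb5 and 33.8% and 33.9% Tubb4b, with α pools of 68.6% and 72.2% Tuba1a and 30.2% and 26.9% Tuba1b. Mural cells, the pericytes and smooth muscle cells of vessels, had 36.5% Tubb4b in both libraries and 25.8% and 20.0% Tubb5. Tuba1c reached 13.2% of the α pool of mural cells in Control and 4.23% in TBI. Microglia, of which there were only 21 and 62 cells, had 51.1% and 49.2% Tuba1a, 37.0% and 35.1% Tuba1b and 8.89% and 12.5% Tuba1c.

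The effect of injury was read as the TBI to Control ratio of a gene's level within a class, for pairs of gene and class with 100 UMIs or more in total and no fewer than 10 in either library. Of 110 such pairs over 16 classes, 6 were at least 1.5-fold higher and 6 at least 1.5-fold lower in TBI, against 2.23% and 1.86% of 66937 pairs of all genes. When the median gene ratio was set to 0 in each class, 4 were higher and 8 lower. In the 7 neuronal stages 2 of 55 pairs were higher and 0 lower, against 1.38% and 1.44% of pairs, and in the 9 other classes 4 and 6 of 55, against 3.41% and 2.43%. From early neuroblasts to immature granule neurons 0 of 32 pairs were past it in either direction, where all genes gave 1.12% and 1.48%, and their log2 ratios ran from −0.32 to 0.21. Summed over the neuroblast classes, the 10 genes together had a log2 ratio of −0.11, against a median of −0.01 over 9073 genes. With 1 library per condition the injury cannot be told apart from other differences between the pools or libraries.

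Tubb3 was higher in TBI in the 3 progenitor classes, from 89.5 to 137 CPM in S-phase progenitors (log2 0.62, interval 0.26 to 0.97), from 137 to 231 CPM in mitotic progenitors (0.75, 0.47 to 1.04) and from 107 to 141 CPM in RG-like cells (0.40, 0.15 to 0.64). The first 2 of these were past 1.5-fold, where 1.54% and 2.05% of genes in those classes were. The S-phase value was no longer past it with doublets removed (0.57) or with equal weight for each cell (0.50), and the mitotic value stayed past it, between 0.65 and 0.78. In RG-like cells Tubb3 was 107.5 and 129.8 CPM without doublets, and the share of cells with a Tubb3 UMI was not higher in TBI. The summed level of 10 neuroblast genes (Dcx, Sox11, Sox4, Igfbpl1, Nnat, Neurod1, Eomes, Calb2, Mdk and Stmn2) was 8391 CPM in Control and 8892 CPM in TBI S-phase progenitors, with 5 of the 10 higher in TBI. It was 8385 and 10329 CPM in mitotic progenitors, with 9 higher, and 7853 and 7947 CPM in RG-like cells, with 5 higher, and none of the 10 was at 0 in these classes. Their part in the result was not tested. The median Tubb3 level of an S-phase cell was 0 CPM in Control and 66.2 CPM in TBI. In neuroblasts the Tubb3 ratio was between −0.04 and 0.04 at each of the 4 stages.

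Tuba1b was lower in TBI in the progenitors, by log2 values of −0.36 (−0.45 to −0.27) in S-phase, −0.52 (−0.67 to −0.37) in mitotic and −0.36 (−0.48 to −0.25) in RG-like cells. None of these was past 1.5-fold. Its ratio was also below 0 in early (−0.26) and late neuroblasts (−0.32), astrocytes (−0.51), oligodendrocytes (−0.30) and endothelial cells (−0.21). Intermediate neuroblasts were near level (−0.03), and immature granule neurons had −0.31 (−0.65 to 0.03). Astrocytes with low RNA content (0.24), Reln neurons (0.21) and OPC (0.50) went the other way, with intervals that included 0. Tubb4b was lower in S-phase (−0.28) and mitotic progenitors (−0.41) and slightly higher in RG-like cells (0.19). Tuba1a was lower in early (−0.16, −0.20 to −0.13), intermediate (−0.14, −0.17 to −0.11) and late neuroblasts (−0.14, −0.17 to −0.10). These differences were small beside the step of Tuba1a from RG-like cells to early neuroblasts (1.39 in Control and 1.29 in TBI). Its step from intermediate to late neuroblasts was smaller than they were, at −0.06 in both libraries.

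**Figure D4:**
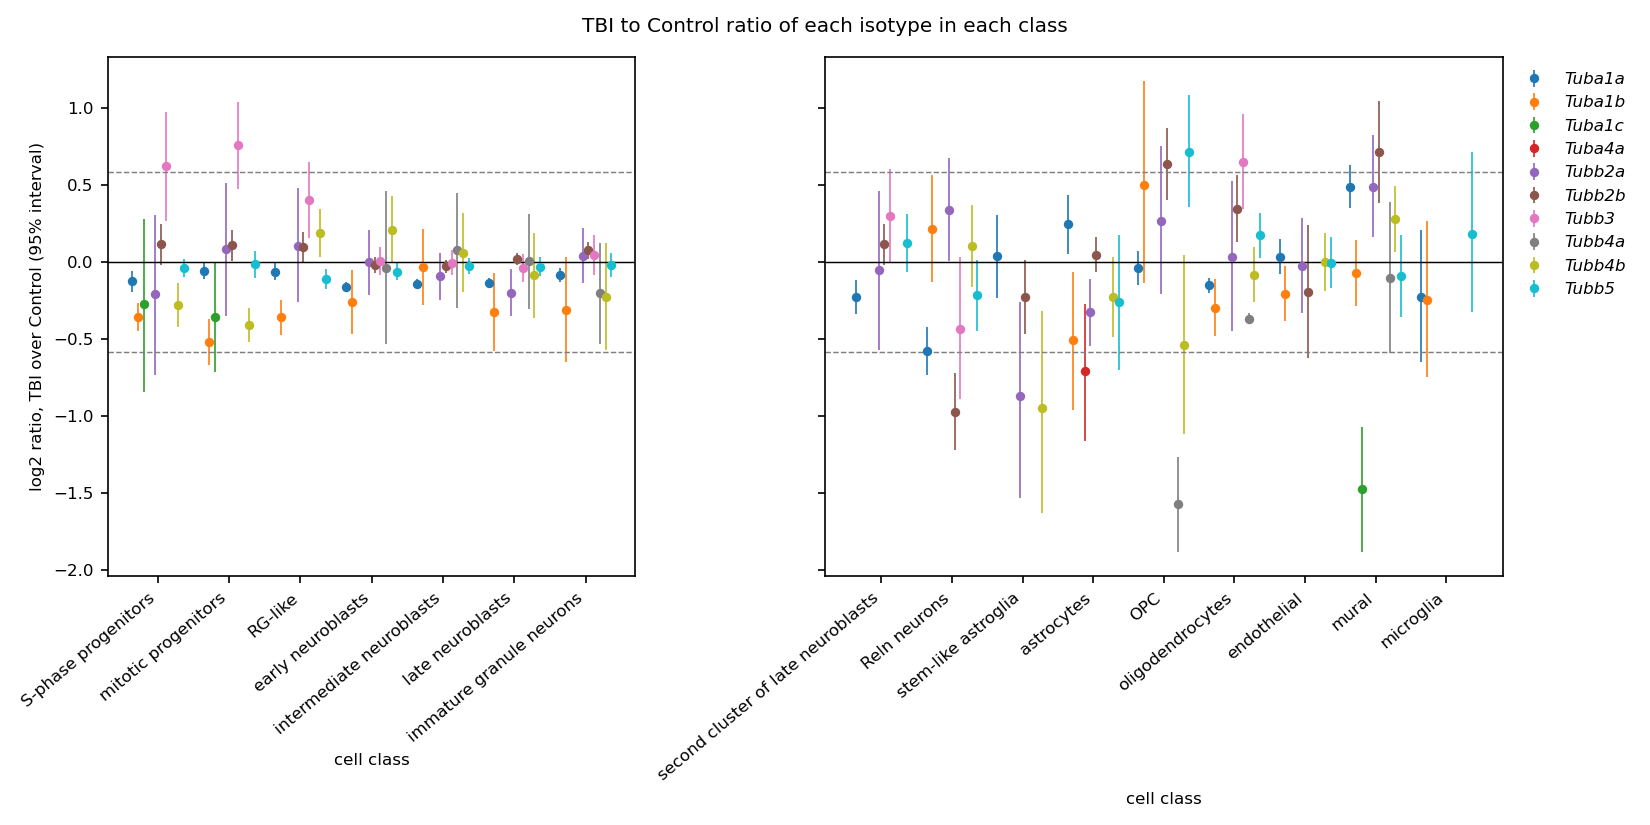
The log2 TBI to Control ratio of each tubulin gene, with 95% intervals of counting error, in 7 neuronal stages (left) and 9 other classes (right), for pairs with enough UMIs, with dashed lines at 1.5-fold. In the neuronal stages only Tubb3 in S-phase and mitotic progenitors lies past a dashed line, and the widest departures are in OPC, mural cells, Reln neurons and stem-like astroglia.

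The other pairs past 1.5-fold lay outside the neuronal stages. In OPC (27 and 55 cells) Tubb4a was lower in TBI (−1.57, −1.88 to −1.27) and Tubb2b (0.63, 0.40 to 0.87) and Tubb5 (0.71, 0.35 to 1.08) were higher, in a class where 11.1% and 17.8% of genes were past 1.5-fold down and up and the median gene had a ratio of 0.15. With that median set to 0 the Tubb2b ratio was 0.48 and the Tubb5 ratio 0.56, and with cells over 10% mitochondrial UMIs removed 0.40 and 0.54, all short of 1.5-fold, while Tubb4a stayed past it. The 8 oligodendrocyte markers summed to 27598 CPM in Control and 7042 CPM in TBI OPC, with 1 of 8 higher in TBI and Ermn at 0 in Control. The 10 neuroblast genes summed to 1137 and 2283 CPM there, all 10 higher in TBI, with Igfbpl1, Neurod1, Eomes and Stmn2 at 0 in Control. OPC markers summed to 4405 and 5980 CPM, with 5 of 7 higher. The part of these in the ratios was not tested. Per cell, the median Tubb4a level of OPC was 369.9 CPM in Control and 0 CPM in TBI.

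In mural cells Tuba1c was lower in TBI (120.3 against 43.3 CPM, log2 −1.48, interval −1.88 to −1.08) and Tubb2b higher (0.71, 0.38 to 1.04), where 5.09% and 7.06% of genes were past 1.5-fold down and up and the median ratio was 0.10. The Tubb2b ratio was 0.51 with the same mitochondrial limit and 0.44 with equal weight for each cell, both short of 1.5-fold. The cluster led by the smooth muscle genes Acta2, Tagln, Pln and Myh11 was 51 of 251 mural cells in Control and 40 of 607 in TBI, and those 4 genes summed to 14240 and 3720 CPM over the class, with 0 of 4 higher in TBI. Within that cluster Tuba1c was 278 CPM in Control and 232 CPM in TBI, and in the largest mural cluster, led by the pericyte gene Abcc9, 10.5 and 10.6 CPM. In the cluster led by Kcnj8, which was 44 of 251 mural cells in Control and 263 of 607 in TBI, Tuba1c was 34.9 and 20.9 CPM. In the smallest cluster, of 13 and 22 cells, it was 62.3 and 12.7 CPM. Outside the smooth muscle cluster these Tuba1c values rest on few UMIs. No interval was made for any of the clusters, so no direction is read from them. Tubb2b was 149 CPM in Control and 109 CPM in TBI in the Abcc9 cluster, opposite in direction to the class as a whole, and 157 and 219 CPM in the Kcnj8 cluster. It was 15.6 and 20.3 CPM in the smooth muscle cluster and 15.6 and 166 CPM in the smallest, also on few UMIs. The part of these cluster shares in the ratios was not tested.

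In Reln neurons Tubb2b was lower in TBI (1294 against 659 CPM, −0.97, −1.22 to −0.72), in a class of 27 and 75 cells where 1.72% of genes were past 1.5-fold down. The 10 neuroblast genes summed to 4861 CPM in Control and 2695 CPM in TBI there, with 0 of 10 higher in TBI. Stmn2 (1209 and 1122 CPM) and Calb2 (737 and 562 CPM) were large parts of that sum, and Sox11 was 760 and 172 CPM. The Tubb2b value moved with the processing, from −1.60 with doublets removed to −0.56 with tubulin genes kept for clustering and −0.44 at a finer clustering, the last 2 short of 1.5-fold. In stem-like astroglia Tubb2a (−0.87, −1.53 to −0.26) and Tubb4b (−0.95, −1.63 to −0.32) were lower in TBI on 27 and 25 TBI UMIs, where 4.29% of genes were. In astrocytes Tuba4a was lower (−0.71, −1.16 to −0.27), against 1.16% of genes, while in astrocytes with low RNA content it was level (0.05, −0.35 to 0.44).

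Oligodendrocytes, the largest of the 16 classes with 473 and 971 cells, had a lower Tubb4a level in TBI (1991 against 1542 CPM, −0.37, −0.41 to −0.33), short of 1.5-fold. Tubb3 was past it, at 22.8 CPM in Control and 35.6 CPM in TBI (0.64, 0.34 to 0.96), where 1.3% of genes were. The 10 neuroblast genes summed to 199 and 287 CPM in these cells, with 8 higher in TBI, and to 48.1 and 53.4 CPM without cells called doublets, when Tubb3 was 15.4 and 20.8 CPM and its ratio 0.43, short of 1.5-fold. The Tubb3 ratio was also short of it, at 0.45, without the oligodendrocyte cluster that held most doublets, and at 0.58 with equal weight of cells. In astrocytes, Tubb3 was 3.84 and 27.6 CPM, and without the 1 TBI cell called a doublet it was 3.84 and 5.60 CPM. Removing doublets left 1.57 and 1.48 CPM of Tubb3 in endothelial cells.

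**Figure D5:**
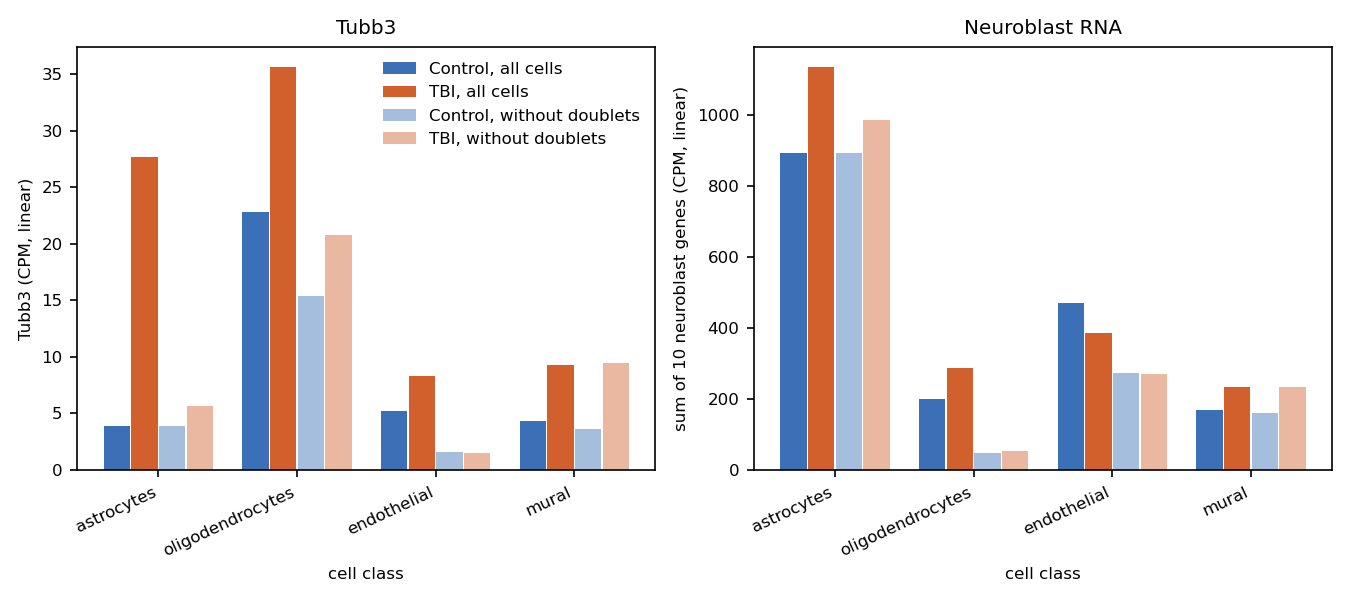
Bars from 0 of the Tubb3 level and of the summed level of 10 neuroblast genes, in CPM, in astrocytes, oligodendrocytes, endothelial cells and mural cells of Control and TBI, with all cells and without cells called doublets. Without doublets Tubb3 was 5.60 CPM instead of 27.6 CPM in TBI astrocytes and 15.4 and 20.8 CPM in oligodendrocytes. With all cells, Nnat alone gave 615 of 894 CPM of the sum in Control astrocytes and 664 of 1135 CPM in TBI astrocytes, where Dcx was 1.54 and 7.74 CPM.

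Genes that work with tubulin were read from late neuroblasts against RG-like cells, as log2 ratios of CPM and with the same call of 2-fold in both libraries (8.44% of genes higher, 10.9% lower, median ratio −0.00 in Control and −0.07 in TBI). The chaperonin CCT and prefoldin, which fold new tubulin, were nearly level: 0 of 13 genes were called, with medians of 0.08 and 0.05. Pfdn4 was highest, at 0.46 and 0.43, and Cct3 lowest, at −0.74 and −0.57. Of the 8 tubulin cofactors and autoregulation genes, which assemble the heterodimer or control its mRNA, 1 was higher and 0 were lower, with medians of 0.09 and 0.17. That gene was the cofactor Tbce, at 1.17 and 1.10.

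The groups that act on assembled microtubules moved more. Of the tubulin-modifying enzymes 15 of 18 had enough UMIs, and 5 were higher and 2 lower, with medians of 0.56 and 0.33. Vash2, a vasohibin that removes the C-terminal tyrosine of α-tubulin, was higher by 1.62 and 1.85, from 8.73 and 10.0 CPM in RG-like cells. The polyglutamylase Ttll7 was higher by 3.36 and 1.06, from only 3.88 CPM in Control and 18.9 CPM in TBI RG-like cells. The glycylase Ttll3 was lowest at −2.12 and −1.61, with only 4.13 and 6.57 CPM left in late neuroblasts. Of the microtubule-associated proteins 23 of 25 had enough UMIs, and 9 were higher and 1 lower, with medians of 0.73 and 0.83. Stmn2 and Stmn4, stathmins of growing axons, were highest at 8.53 and 5.20 and at 6.11 and 3.89. Their size is uncertain, because RG-like cells held only 3.40 CPM of Stmn2 and 6.79 CPM of Stmn4 in Control. In TBI these levels were 30.4 and 31.2 CPM. Dcx (doublecortin) was higher by 2.38 and 2.11 and Mapt (tau) by 1.33 and 1.30, and Map1a was lower by −2.09 and −2.04. Dcx was also a marker used to name neuronal clusters.

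The motors and the nucleation genes differed in opposite directions. Of 15 measured axonal motor genes 5 were called higher and 0 lower, with medians of 1.03 and 0.83, the highest being the kinesins Kif5c (2.82 and 2.41) in Control and Kif3c (2.18 and 2.53) in TBI. Kif21b was higher by 2.4 and 2.33, and Kif5b was near level at 0.10 and −0.06. Of 16 measured genes of the γ-tubulin ring and augmin complexes, which start new microtubules, 0 were called higher and 6 lower, with medians of −0.78 and −0.87. Nedd1 was lowest at −3.40 and −2.76, followed in Control by Haus1 (−3.04, and −1.59 in TBI) and in TBI by Haus4 and Haus5 (both −1.86, and −1.58 and −0.98 in Control). Late neuroblasts held only 3.44 and 4.38 CPM of Nedd1, and 7.57 CPM of Haus1 in Control. Nedd1 entered the comparison mainly through RG-like cells (36.4 and 29.7 CPM), so the size of these ratios is uncertain. The highest was Tubgcp5 in Control, at 0.08 (−0.29 in TBI), and Mzt1 in TBI, at 0.12 (0.00 in Control).

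The genes most like each member were found by the Pearson correlation of log2(CPM + 1) over the 32 points of 16 classes in 2 libraries, which share library and depth, among 9405 genes with at least 50 CPM in a class. For Tubb3 they were Dusp4 (r = 0.96), Rab3c (0.95) and Plppr3 (0.95), for Tuba1a Mgat5b (0.95), Mllt11 (0.95) and D430019H16Rik (0.94), and for Tubb2b Nnat (0.95), Tmem35a (0.94) and Ppp2r2b (0.94). For Tubb5 they were Hnrnpa1 (0.95), Snrpe (0.94) and Sox4 (0.94), for Tubb4a Sv2a (0.90), Nfasc (0.89) and Tmem151a (0.89), and for Tuba1b Dek (0.89), Hspa14 (0.86) and Rbbp7 (0.83). The correlations were lower for Tubb4b, with Gtse1 (0.84), Ppp2r5d (0.84) and Terf1 (0.82), and for Tubb2a, with Cbr1 (0.82), Trio (0.81) and Cbarp (0.80). The rare genes had the loosest matches, Nptn (0.75), Ripor2 (0.72) and Gpi1 (0.71) for Tuba4a and Sf1 (0.75), Ddx3x (0.74) and Abca9 (0.74) for Tuba1c. Among the members themselves, Tuba1a and Tubb3 were most alike (0.90), followed by Tuba1a and Tubb5 (0.86), and Tuba1a and Tuba4a least (−0.61).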

How the data were processed

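Single-cell RNA was measured with 10x 3′ v3 chemistry in 1 library per condition. Per the labels, the authors made the tables with Cell Ranger 3.0.2 on GRCm38/mm10. The deposited values are UMI counts per gene and barcode, not normalized. The conditions of the 2 tables were taken from the study's naming of the libraries. As a check, all 356 barcodes it lists for Control and all 320 for TBI were found in the table of that condition and none in the other.

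Cells with at least 200 genes and UMIs within 3 median absolute deviations of the library median (log scale) were kept. Scrublet, run in Scanpy 1.11.5, gave doublet calls (0.8% per 1000 cells, 38 Control and 109 TBI cells) and left in. Cells were clustered with Seurat 5.3.0 in R 4.3.3, as in the study's methods but in a later version: canonical correlation analysis on 2000 variable genes, from which Malat1 and the tubulin genes were removed, 20 dimensions and a resolution of 3 for all cells, and 30 dimensions and a resolution of 0.8 for lineage cells. Clusters were named by markers. A cluster was left unnamed where its RNA content was very low and no marker of its type was among its 10 leading genes. A cluster with a median UMI count under 0.5 times that of its library was kept apart as low in RNA, and among clusters of all cells a name needed a mean standardized marker level of 1. No such minimum was set for lineage clusters, where each stage went to 1 cluster so that the summed level was highest, which left the second cluster of late neuroblasts at 0.77. The members and gene lists were chosen with earlier results of these data known.

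UMIs were summed per class and library. Intervals are exact Poisson for levels, Clopper-Pearson for shares and conditional binomial for ratios, at 95%. A sum of 0 counted as 3 UMIs in calls. The members were always named, with the 3 genes most like each, and of each list the genes of highest and lowest ratio and examples of those called. The ratios and intervals were tried on Poisson counts drawn from the profile of Control RG-like cells with known fold changes. Those counts hold no spread between cells or animals, so they say nothing about it. Sequences and positions came from GENCODE vM21, and the coding ends of some members are not reported here. Python 3.11.15, NumPy 2.4.6, SciPy 1.17.1, pandas 2.3.3, Biopython 1.88 and matplotlib 3.10.9 were used. The alternatives tried were a minimum of 2000 UMIs, removal of doublets, a mitochondrial limit of 10%, tubulin genes kept for clustering, no integration, a resolution of 1.2, other scalings and equal weight of cells, and, chosen after seeing the data, oligodendrocytes without the cluster that held most doublets.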

Additional observations from a re-analysis of the deposited data

How the results depend on the processing

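No paired analysis was possible because the animals of a condition were pooled into 1 library and no cell carries a replicate number. Of the summary values recomputed under the alternatives, 55 moved little, 4 moved more and none changed direction. The count of members at least 2-fold lower in late neuroblasts than in RG-like cells was 2 instead of 1 without integration and with totals that leave out mitochondrial, ribosomal and hemoglobin genes, the added gene being Tubb4b. The log2 ratio of the summed family in neuroblasts was −0.12 instead of −0.11 without integration, where no intermediate class was found. The count of pairs at least 1.5-fold higher in TBI was 3 instead of 6 when each cell had equal weight. Over the other alternatives it was between 4 and 6, and the count of lower pairs between 5 and 8.

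Of the ratios of single genes 303 moved by less than their interval and 15 by more, among them Tubb2b in Reln neurons (−1.60 with doublets removed, −0.56 with tubulin genes kept, −0.44 at a resolution of 1.2, −0.64 with equal weight) and Tubb2b in OPC (0.40 with the mitochondrial limit, 1.24 with equal weight). The leading isotype was the same in at least 60 of 64 pools. Depth limited Tuba1c and Tuba4a, which had 13 and 18 UMIs in late neuroblasts and RG-like cells together, and the cause of each change was not tested.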

Other observations

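Cells in clusters left without a name, and out of all comparisons, differed in tubulin level between the libraries. Clusters of 113 and 100 cells scored 2.41 for endothelial and 1.85 for mural markers. The unnamed cluster of the neuronal lineage scored 1.49 for markers of immature granule neurons. These were left unnamed because their RNA content was very low and none of those markers was among their 10 leading genes. In 83 Control and 199 TBI unnamed cells Tuba1a was 298 and 1586 CPM, Tubb2b 93.7 and 859 CPM and Tubb3 8.52 and 179 CPM. In 64 and 120 unnamed cells of the neuronal lineage Tuba1a was 1468 and 2896 CPM and Tubb3 188 and 304 CPM. The median log2 TBI to Control ratio of all genes with enough UMIs was 0.41 and 0.48 in these groups. Whether their makeup differed between the libraries was not tested.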
